A study of Mus musculus with 4 samples.

Results

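The 42 genes described here encode proteins of the kinetochore, the spindle assembly checkpoint and the kinases and cyclins of mitosis, together with Top2a and Mki67. The list was set by gene name with earlier results of these data known, and no measured value enters its rule. The rule kept only genes present among the 20065 of the mRNA table of cultured muscle satellite cells, so all 42 are in it. Satellite cells are the stem cells of skeletal muscle. They came from limb and trunk muscles of adult C57BL/6 mice, were sorted by surface markers (CD11b-, CD45-, CD31-, CXCR4+, CD34+) and were then grown in culture. Both genotypes carried Pax7CreERT2, a tamoxifen-dependent Cre recombinase driven from the Pax7 locus, and both are labelled as treated with tamoxifen. The paper describes the cells of this comparison as treated with 4-hydroxytamoxifen, which its methods apply to cultured cells. Control cells (labelled wild type) carried Prmt5+/loxP, so that they keep 1 allele without loxP sites, and Prmt5sKO cells carried Prmt5loxP/loxP, so that Cre can remove both copies of Prmt5, which encodes an arginine methyltransferase. There were 2 libraries of each genotype, with 14436914 and 13240754 gene-assigned reads in the controls and 20047430 and 16190414 in Prmt5sKO. These totals are sums over the genes of the table of read counts solved from the deposited group means, not the number of reads sequenced. The libraries are called deeper and shallower within a genotype because the group means do not name the libraries. How many animals or separate cultures stand behind a library is not given in the sources used here, so p-values measure only the spread between these 4 libraries.

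The kinetochore is the protein assembly on centromeric chromatin that captures microtubules in mitosis. Its inner layer, the constitutive centromere-associated network, sits on nucleosomes that contain the histone variant Cenpa, and its outer layer, which includes the Ndc80 complex, binds the microtubules. The spindle checkpoint delays anaphase until every kinetochore is attached, Aurora B in the chromosomal passenger complex removes faulty attachments, and Cdk1 with its cyclins drives entry into mitosis. Most of these genes are transcribed in late S phase and G2 and are silent in resting cells, and many of their promoters hold a cell cycle genes homology region (CHR), an element bound by complexes of the MuvB core, together with CCAAT boxes bound by NF-Y. Satellite cells in resting muscle do not divide, whereas in culture they proliferate as myoblasts.

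Promoter windows from RefSeq (build GRCm38.p6, 250 bases before to 50 after the transcription start) were matched for 36 of the 42 genes and gave 39 windows. There was no entry for Aurkb, Ccna2, Cdc25c, Incenp, Spc24 and Tpx2. The following windows were chosen among genes whose window holds the CHR, so this element is common to them by choice. They belong to the 3 genes with the lowest and the 1 gene with the highest log2 fold change in Prmt5sKO among these. Capitals mark the CHR (TTTGAA) and CCAAT boxes, each on either strand (TTCAAA and ATTGG on the other strand). In Cdca8 the last base of the CHR is also the first base of a CCAAT box on the other strand.
Cdca8: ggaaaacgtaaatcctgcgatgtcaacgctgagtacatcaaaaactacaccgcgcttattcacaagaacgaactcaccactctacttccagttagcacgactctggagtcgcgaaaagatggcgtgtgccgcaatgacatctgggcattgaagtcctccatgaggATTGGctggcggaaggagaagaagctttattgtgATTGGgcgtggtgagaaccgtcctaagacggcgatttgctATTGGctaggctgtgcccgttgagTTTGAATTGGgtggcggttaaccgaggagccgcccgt
Espl1: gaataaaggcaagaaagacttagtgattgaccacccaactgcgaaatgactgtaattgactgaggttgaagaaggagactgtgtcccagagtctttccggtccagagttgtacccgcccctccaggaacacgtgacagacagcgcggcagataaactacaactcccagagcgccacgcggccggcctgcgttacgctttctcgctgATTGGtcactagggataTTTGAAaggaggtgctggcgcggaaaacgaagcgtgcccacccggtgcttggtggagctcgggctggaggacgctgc
Mki67: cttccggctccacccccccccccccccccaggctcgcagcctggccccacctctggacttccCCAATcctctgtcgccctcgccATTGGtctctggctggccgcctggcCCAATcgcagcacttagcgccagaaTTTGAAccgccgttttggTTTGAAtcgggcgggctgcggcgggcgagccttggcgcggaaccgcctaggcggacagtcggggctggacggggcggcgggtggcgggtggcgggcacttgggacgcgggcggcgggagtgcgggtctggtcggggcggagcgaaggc
Spc25: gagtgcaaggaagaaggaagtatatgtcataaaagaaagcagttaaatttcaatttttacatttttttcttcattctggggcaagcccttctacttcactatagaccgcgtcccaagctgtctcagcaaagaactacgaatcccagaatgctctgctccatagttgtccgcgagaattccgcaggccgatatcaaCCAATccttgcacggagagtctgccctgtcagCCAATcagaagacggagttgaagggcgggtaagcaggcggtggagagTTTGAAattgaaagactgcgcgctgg
In build GRCm38.p6 these windows lie at chr4:124936868-124937167 on the minus strand (Cdca8), chr15:102296043-102296342 on the plus strand (Espl1), chr7:135716330-135716629 on the minus strand (Mki67) and chr2:69206164-69206463 on the minus strand (Spc25).

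In Espl1 the CHR began 27 bases before the start and a CCAAT box 44 bases before it, and in Cdca8 the CHR began 14 bases after it. Within 100 bases before to 50 bases after the start, TTTGAA was present in 18 of 39 member windows (46.2%), against 8.01% of all 32851 windows and 4.50% of the 14231 windows of the other genes tested for expression. CCAAT was present there in 25 of 39 windows (64.1%), against 23.4% of all windows and 24.3% of those of the other genes tested. Both elements were found there in 15 of 39 windows (38.5%), against 1.93% of all windows and 1.26% of those of the other genes tested. Over the whole window TTTGAA was present in 51.3% of member windows, against 17.9% of all and 11.9% of those of the other genes tested. CCAAT was present in 79.5%, against 37.4% and 37.0%. The related letters TTTAAA were present in 9 of 39 windows (23.1%), against 13.2% of all and 9.21% of those of the other genes tested. Any of 4 E2F forms (TTTGGCGC, TTTCCCGC, TTTCGCGC or TTTGCCGC, either strand) was present in 4 of 39 windows (10.3%), those of Cdk1, Cenpl, Cenpm and Cenps, against 2.26% of all and 3.70% of those of the other genes tested. The median log2 fold change in Prmt5sKO was −0.77 over the 19 members with TTTGAA in the window and −0.87 over the 17 without it. A match to these letters describes the sequence and is not evidence of binding in these cells.

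**Figure D1:**
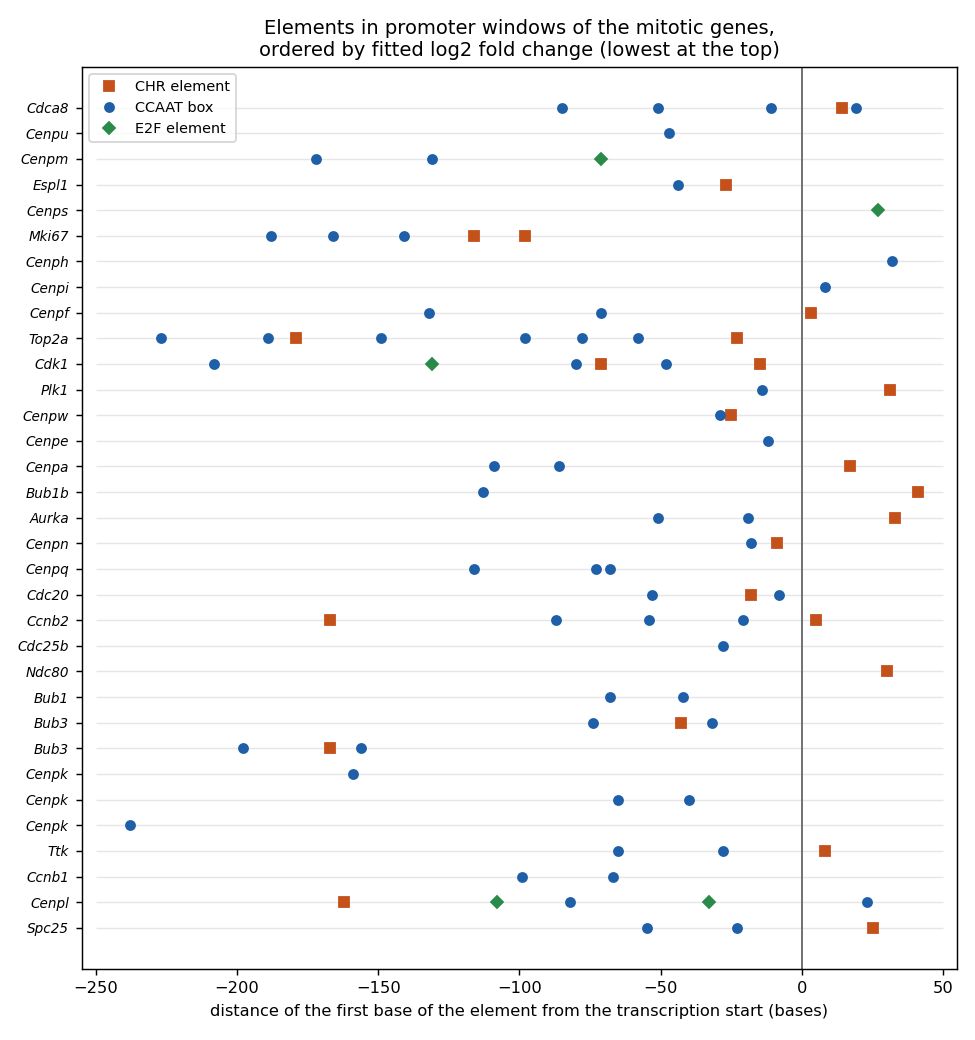
Positions of CHR elements (TTTGAA, orange squares), CCAAT boxes (blue circles) and 4 E2F forms (green diamonds), on either strand, in the 33 member windows that hold at least 1 of them; the x axis gives the distance of the first base from the transcription start in bases. Rows run from the lowest log2 fold change in Prmt5sKO at the top to the highest at the bottom, and squares appear from Cdca8 at the top to Spc25 at the bottom.

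The mRNA levels of these genes were lower in Prmt5sKO cells almost throughout, with −0.84 as their median log2 fold change (quartiles −1.08 and −0.56), while the median over all 16212 genes tested was 0.02 (quartiles −0.40 and 0.50). In 40 of the 42 genes both Prmt5sKO libraries lay below both control libraries, a separation seen in this direction in 23.6% of all genes tested. Cenpt lay higher in both Prmt5sKO libraries, as did 25.2% of all genes, and only the values of Ttk overlapped between the genotypes. A fitted decrease of at least 2-fold was seen in 14 of the 42, against 9.05% of all genes. All 42 passed the filter on low counts (mean of 5 normalized counts or more), with 26 to 9314 reads per library.

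None of the 42 met the threshold of an adjusted p of at most 0.05 with a change of at least 2-fold (limma-voom, Benjamini-Hochberg over all genes tested). Neither did any other gene (0.0% of 16212). The lowest adjusted p (limma-voom) was 0.193, that of Prmt5, so even the targeted gene was not called. The adjusted p of the members ran from 0.198 (Cdca8) to 0.701 (Spc25). At an unadjusted p under 0.05, 30 of the 42 were lower in Prmt5sKO and 0 higher, against 6.95% of all genes lower and 6.01% higher. In bulk RNA, fewer cells in G2 and mitosis and less of each mRNA per cell cannot be told apart.

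**Figure D2:**
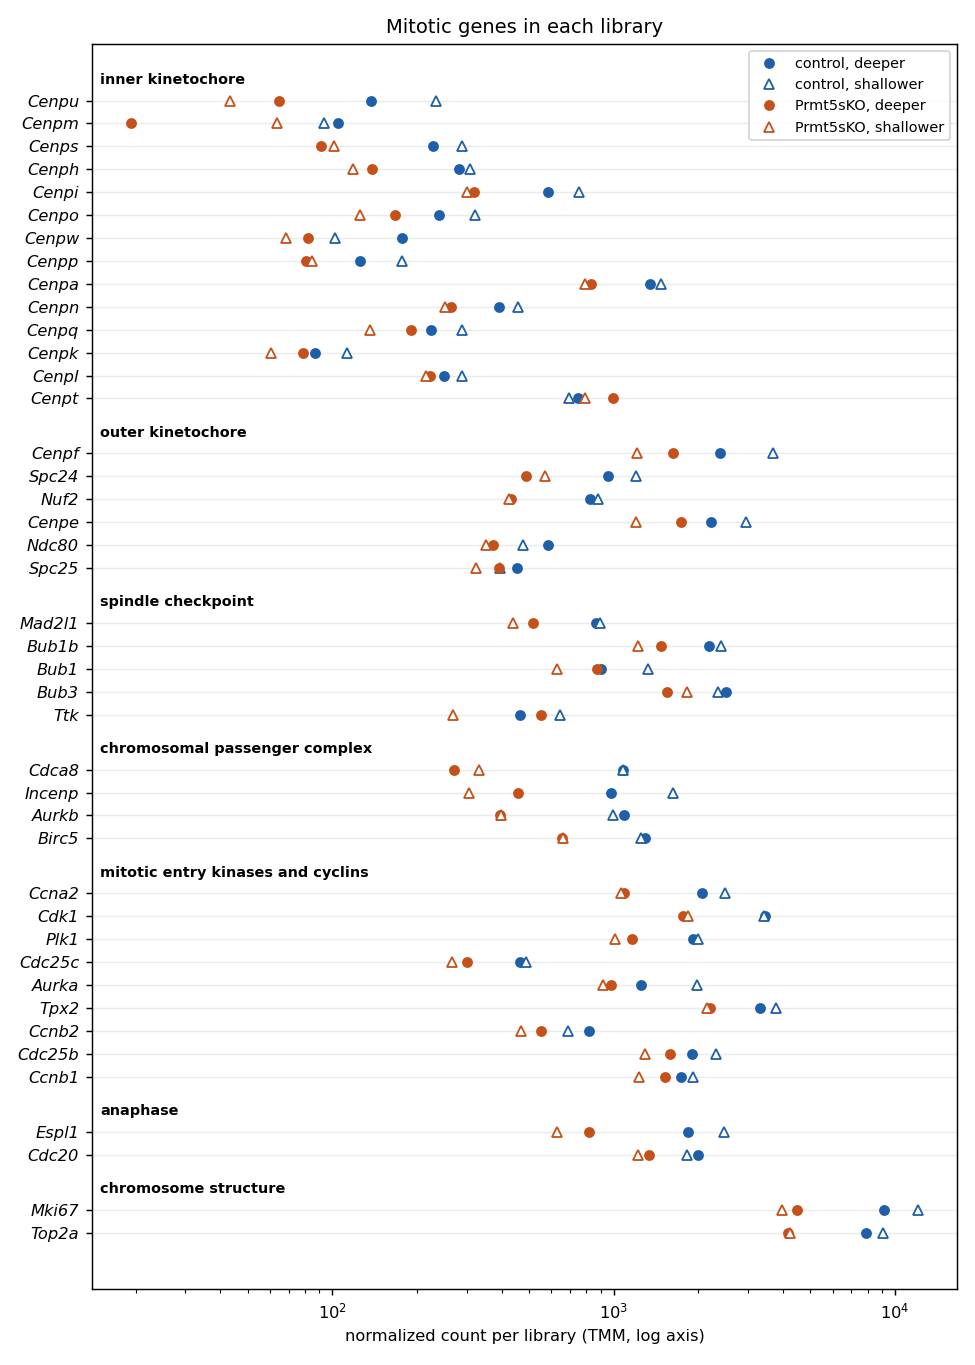
Normalized count (TMM scaling, log axis) of each of the 42 genes in each of the 4 libraries, by role; blue is control, orange Prmt5sKO, filled circles the deeper and open triangles the shallower library. The orange symbols lie left of the blue ones in 40 of the 42 rows, the exceptions being Cenpt, where they lie to the right, and Ttk, where they overlap.

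The chromosomal passenger complex, which corrects faulty attachments and later works in cytokinesis, had the lowest median of the 7 roles (−1.56 over its 4 genes). All 4 were lower at an unadjusted p under 0.05 (limma-voom), against 6.95% of all genes tested. Cdca8 (Borealin, ENSMUSG00000028873, chr4:124918465-124939311), which ties the complex to the centromere, had a normalized count of 1083 (deeper library) and 1080.3 (shallower library) in control versus 271 (deeper) and 332 (shallower) in Prmt5sKO. All values that follow keep this order, deeper library first. The control values were almost equal and the Prmt5sKO values lay far below both. This is a log2 fold change of −1.86 ± 0.24 SE (SE, standard error; adjusted p = 0.198), the lowest among the 42. Incenp, the scaffold of the complex, had 976 and 1622 in control versus 457 and 306 in Prmt5sKO (log2 fold change −1.72 ± 0.35 SE, adjusted p = 0.232). Within this complex its controls differed most from each other, and the Prmt5sKO values still lay below both.

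Aurkb (Aurora B, ENSMUSG00000020897, chr11:69045647-69051664), the kinase of the complex, had 1084 and 993 normalized counts in control against 393 and 396 in Prmt5sKO. The values in Prmt5sKO were 62.0% below the control mean, with close libraries on either side (log2 fold change −1.39 ± 0.22 SE, adjusted p = 0.203). Birc5 (Survivin), the subunit that recognises phosphorylated histone H3, had the highest level of the 4 per kilobase of exon (373 normalized counts per kilobase in control) and the smallest decrease. It had 1288 and 1249 normalized counts in control versus 655 and 659.7 in Prmt5sKO, again without overlap (log2 fold change −0.95 ± 0.20 SE, adjusted p = 0.237). Within a library, reads of Birc5 over those of Cdca8 came to 1.19 and 1.16 in control versus 2.42 and 1.99 in Prmt5sKO. These genes have the smallest and the largest decrease of the 4, the pair was picked for that after the values were seen, and the difference between them was not tested.

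The genes of anaphase were separase and the APC/C activator Cdc20. Espl1 (separase, the protease that cleaves cohesin, ENSMUSG00000058290, chr15:102296266-102324357) had 1843 and 2459 normalized counts in control versus 819 and 631 in Prmt5sKO. Both Prmt5sKO libraries were below 50% of the lower control value, with a log2 fold change of −1.56 ± 0.25 SE (adjusted p = 0.203). Cdc20 had 1995 and 1817 in control against 1337 and 1224 in Prmt5sKO, a smaller gap that also left no overlap (log2 fold change −0.57 ± 0.20 SE, adjusted p = 0.333). Per kilobase of exon Cdc20 was among the most abundant of the 42 in control, at 1020.2 normalized counts.

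Of the 2 genes of chromosome structure, Mki67 (the Ki-67 antigen, which coats mitotic chromosomes and is absent from resting cells, ENSMUSG00000031004, chr7:135689784-135716361) had the highest level of the 42 per kilobase of exon in control, at 1054 normalized counts. It had 9129.9 and 12079 normalized counts per gene in control versus 4488 and 3972 in Prmt5sKO. The values of both Prmt5sKO libraries were less than 50% of the lower control (log2 fold change −1.32 ± 0.23 SE, adjusted p = 0.214). Top2a (topoisomerase II alpha, which untangles sister chromatids, ENSMUSG00000020914, chr11:98992943-99024189) had 7905 and 9057 in control against 4152 and 4249 in Prmt5sKO. Its log2 fold change was −1.01 ± 0.20 SE (adjusted p = 0.231), with close values within Prmt5sKO.

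**Figure D3:**
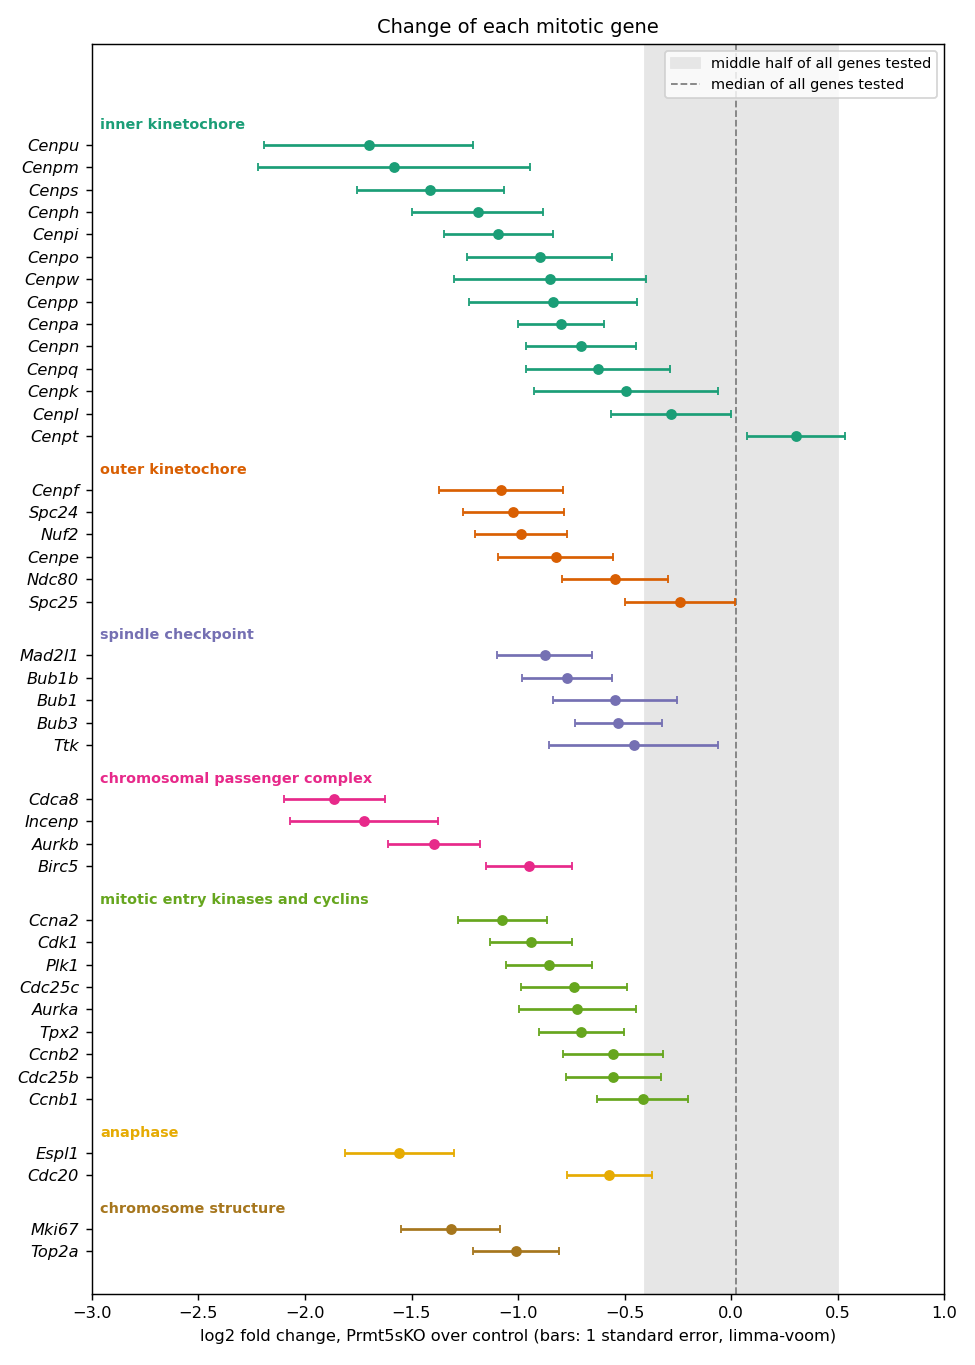
Log2 fold change (Prmt5sKO over control, limma-voom) of each gene with 1 standard error, coloured by role; the grey band spans the quartiles of all genes tested (−0.40 to 0.50) and the dashed line their median (0.02). Cdca8, Incenp, Aurkb, Espl1 and 3 inner kinetochore genes (Cenpu, Cenpm, Cenps) lie furthest to the left, and Cenpt alone lies to the right of 0.

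Over the 14 genes of the inner kinetochore the median change was −0.84 on the log2 scale. Of these, 13 were lower in both Prmt5sKO libraries, 8 were lower at an unadjusted p under 0.05 and 5 had a fitted decrease of at least 2-fold. The shares of all genes tested were 23.6%, 6.95% and 9.05%. Cenpa (ENSMUSG00000029177, chr5:30666777-30674830), the histone variant that marks the centromere, had 1352 and 1471 normalized counts in control versus 829 and 789 in Prmt5sKO. The libraries of a genotype were close and the genotypes did not overlap (log2 fold change −0.80 ± 0.20 SE, adjusted p = 0.262). The lowest fold change of the group was that of Cenpu, a subunit of the network that also docks Plk1, with 137 and 233 in control versus 64.5 and 43.2 in Prmt5sKO (−1.70 ± 0.49 SE, adjusted p = 0.295). No library held more than 180 reads of it, and 26.7% of the annotated exon length of Cenpu overlaps Primpol on the other strand.

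Cenpt (ENSMUSG00000036672, chr8:105844673-105853278), which reaches outward from the chromatin to recruit the Ndc80 complex, was the 1 gene of the 42 with a positive fold change. It had 748 and 693 normalized counts in control versus 994 and 790.5 in Prmt5sKO, both above both controls. The gap between the shallower Prmt5sKO and the deeper control library was small, and the log2 fold change of 0.30 ± 0.23 SE had a 95% interval from −0.26 to 0.87 (adjusted p = 0.585). Cenps, a histone-fold partner in the same nucleosome-like Cenpt, Cenpw, Cenps and Cenpx assembly, had 228 and 288 in control versus 91.1 and 102 in Prmt5sKO (log2 fold change −1.41 ± 0.35 SE, adjusted p = 0.262). Reads of Cenpt over reads of Cenps in the same library were 3.28 and 2.41 in control versus 10.9 and 7.78 in Prmt5sKO. This pair and the other ratios given here were likewise chosen after the values were seen, and no difference between members was tested.

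Cenpm, a subunit whose fold resembles small GTPases, had the least equal Prmt5sKO libraries of the inner layer, with 105 and 93.4 normalized counts in control versus 19.3 and 63.4 in Prmt5sKO. The deeper Prmt5sKO library held 26 reads of it, the lowest count of any member (log2 fold change −1.58 ± 0.64 SE, adjusted p = 0.380). Cenph and Cenpi, which belong to 1 subcomplex with Cenpk and Cenpm, had log2 fold changes of −1.19 and −1.09, while that of Cenpk was −0.50, at 87.0 and 113 in control against 78.5 and 60.3 in Prmt5sKO. Cenpk was also the gene with the lowest level per kilobase of exon in control, at 19.1 normalized counts. The remaining subunits lay between −0.90 (Cenpo) and −0.28 (Cenpl), with Cenpw at −0.85, Cenpp at −0.84, Cenpn, which reads the Cenpa nucleosome, at −0.70, and Cenpq at −0.63.

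The 6 outer kinetochore genes had a median of −0.90, and all 6 were lower in both Prmt5sKO libraries, against 23.6% of all genes tested. The Ndc80 complex is built of 4 subunits, whose fitted log2 fold changes ran from −1.02 to −0.24 with overlapping 95% intervals. Spc24 had 955 and 1203 normalized counts in control versus 489 and 571 in Prmt5sKO (log2 fold change −1.02 ± 0.24 SE, adjusted p = 0.252). Its partner Spc25 (ENSMUSG00000005233, chr2:69193895-69206194), with which it anchors the complex to the inner layer, had 452 and 394 in control versus 392 and 323 in Prmt5sKO. The deeper Prmt5sKO value was almost equal to the shallower control value, and the log2 fold change of −0.24 ± 0.26 SE had a 95% interval from −0.87 to 0.39 (adjusted p = 0.701).

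The subunits that bind the microtubule were Ndc80 and Nuf2. Ndc80 (ENSMUSG00000024056, chr17:71496100-71526857) had 584 and 475 normalized counts in control versus 372 and 351 in Prmt5sKO (log2 fold change −0.55 ± 0.25 SE, adjusted p = 0.409). Nuf2 had 823 and 878 against 433 and 424 (−0.99 ± 0.22 SE, adjusted p = 0.247), with the libraries of a genotype close to each other. Reads of Spc25 over reads of Nuf2 were 0.549 and 0.449 in control versus 0.906 and 0.761 in Prmt5sKO, whereas those of Spc24 over Nuf2 overlapped between genotypes, at 1.16 and 1.37 against 1.13 and 1.35. Cenpf, a large protein of the kinetochore corona, had 2379.9 and 3684 normalized counts in control versus 1623 and 1206 in Prmt5sKO (log2 fold change −1.08 ± 0.29 SE, adjusted p = 0.276). Cenpe, a kinesin that carries chromosomes to the metaphase plate, had a log2 fold change of −0.82 ± 0.27 SE (adjusted p = 0.323).

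Of the 5 spindle checkpoint genes, 4 were lower in both Prmt5sKO libraries, against 23.6% of all genes tested. Their median log2 fold change was −0.55, the least negative of the 7 roles. Mad2l1 (Mad2), which inhibits Cdc20 at unattached kinetochores, had 867 and 891 normalized counts in control versus 519 and 437 in Prmt5sKO (−0.87 ± 0.22 SE, adjusted p = 0.268). Bub1b (BubR1, ENSMUSG00000040084, chr2:118598211-118641591), another part of the inhibitor of the APC/C, had 2174 and 2411 in control versus 1476 and 1217 in Prmt5sKO. It had the highest level of the 5 per kilobase of exon, and its 2 genotypes were clearly apart (log2 fold change −0.77 ± 0.21 SE, adjusted p = 0.276). Bub3, the partner of Bub1 and Bub1b, and the kinase Bub1 had log2 fold changes of −0.53 ± 0.20 SE (adjusted p = 0.360) and −0.55 ± 0.29 SE (adjusted p = 0.463).

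Ttk (Mps1), the kinase that starts checkpoint signalling, was the member whose genotypes overlapped, with 466 and 643 normalized counts in control versus 552 and 269.5 in Prmt5sKO. The deeper Prmt5sKO library lay between the controls, and only the shallower one lay below them. The log2 fold change of −0.46 ± 0.40 SE (adjusted p = 0.633) became 0.021 without the shallower Prmt5sKO library and −1.01 without the deeper one.

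The 9 genes of mitotic entry changed by −0.72 on the log2 scale at the median. All 9 were lower in both Prmt5sKO libraries, against 23.6% of all genes tested. Cdk1 (ENSMUSG00000019942, chr10:69335146-69352938), the kinase that drives cells into mitosis, had 3461 and 3432 normalized counts in control versus 1759.7 and 1837 in Prmt5sKO. Both pairs of libraries were tight, and Prmt5sKO lay 47.8% below control (log2 fold change −0.94 ± 0.19 SE, adjusted p = 0.232). The 95% intervals of its 3 cyclins overlapped. Ccna2 (cyclin A2), which also acts in S phase, had 2064 and 2490.0 in control against 1087 and 1065 in Prmt5sKO (−1.07 ± 0.21 SE, adjusted p = 0.230).

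Ccnb1 (cyclin B1, ENSMUSG00000041431, chr13:100778650-100786570), the main mitotic cyclin, had 1739 and 1914 normalized counts in control versus 1517 and 1229 in Prmt5sKO. These values were separate but near each other, with a log2 fold change of −0.42 ± 0.21 SE and a 95% interval from −0.94 to 0.11 (adjusted p = 0.449). Reads of Ccnb1 over reads of Ccna2 were 0.843 and 0.769 in control versus 1.396 and 1.15 in Prmt5sKO. Ccnb2 (cyclin B2) had a log2 fold change of −0.55 ± 0.23 SE (adjusted p = 0.390). The annotation lists 1 named pseudogene each for Ccnb1 and Ccnb2, and how the counting treated reads shared with them is not given in the sources used here.

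Plk1 (Polo-like kinase 1, ENSMUSG00000030867, chr7:122159439-122169873), which acts at centrosomes and kinetochores, had 1918 and 1998 normalized counts in control against 1160.3 and 1009 in Prmt5sKO. It had the highest level per kilobase of exon among the 9 (890.5 normalized counts in control), and its genotypes were well apart (log2 fold change −0.85 ± 0.20 SE, adjusted p = 0.256). Aurka (Aurora A), the centrosomal kinase, and its activator Tpx2 had log2 fold changes of −0.72 ± 0.27 SE (adjusted p = 0.357) and −0.70 ± 0.20 SE (adjusted p = 0.285). Reads of Aurka over those of Aurkb were 1.15 and 1.99 in control versus 2.49 and 2.31 in Prmt5sKO. The phosphatases that activate Cdk1 had log2 fold changes of −0.74 (Cdc25c, adjusted p = 0.327) and −0.55 (Cdc25b, adjusted p = 0.383).

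Beside the 42, further lists of mitotic and cell cycle genes were read from the same fit. Of all genes tested, 23.6% were lower in both Prmt5sKO libraries. Of 23 other kinetochore genes, 20 were lower in both Prmt5sKO libraries, and the median was −0.70 on the log2 scale, from −1.54 for Haspin, the kinase that marks centromeric histone H3, to −0.05 for Cenpc1, a scaffold of the inner kinetochore. Mitotic kinesins and spindle proteins had a median of −0.75 over 26 genes (19 lower in both), from −1.67 for the kinesin Kif15 to 0.18 for the kinesin Kifc1. Condensin and cohesin genes had a median of −0.69 over 16 (13 lower in both), from −1.29 for the condensin subunit Ncapd2 to 0.71 for Pttg1 (securin, the inhibitor of separase). Pttg1 had 133 and 136 normalized counts in control versus 227 and 214 in Prmt5sKO (adjusted p = 0.406).

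The subunits and regulators of the APC/C, the ubiquitin ligase that Cdc20 activates, form a list of 18 genes. In both Prmt5sKO libraries 11 of them were lower (61.1%, against 23.6% of all genes) and 5 higher, where all genes gave 25.2%. Their median was −0.31 on the log2 scale. At an unadjusted p under 0.05 (limma-voom), 2 were lower and 2 higher, against 6.95% and 6.01% of all genes tested. Fbxo5 (Emi1), an inhibitor of the complex, was the lowest (−1.44) and the subunit Anapc10 the highest (0.91). Genes of DNA replication, which act before mitosis, had a lower median than the 42 genes, at −1.17 over 28 genes. In both Prmt5sKO libraries 27 were lower, and 23 were lower at an unadjusted p under 0.05 (limma-voom), against 23.6% and 6.95% of all genes. They ran from −2.23 for the licensing factor Cdt1 to −0.43 for the sliding clamp Pcna. No gene of these lists met the adjusted threshold.

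**Figure D4:**
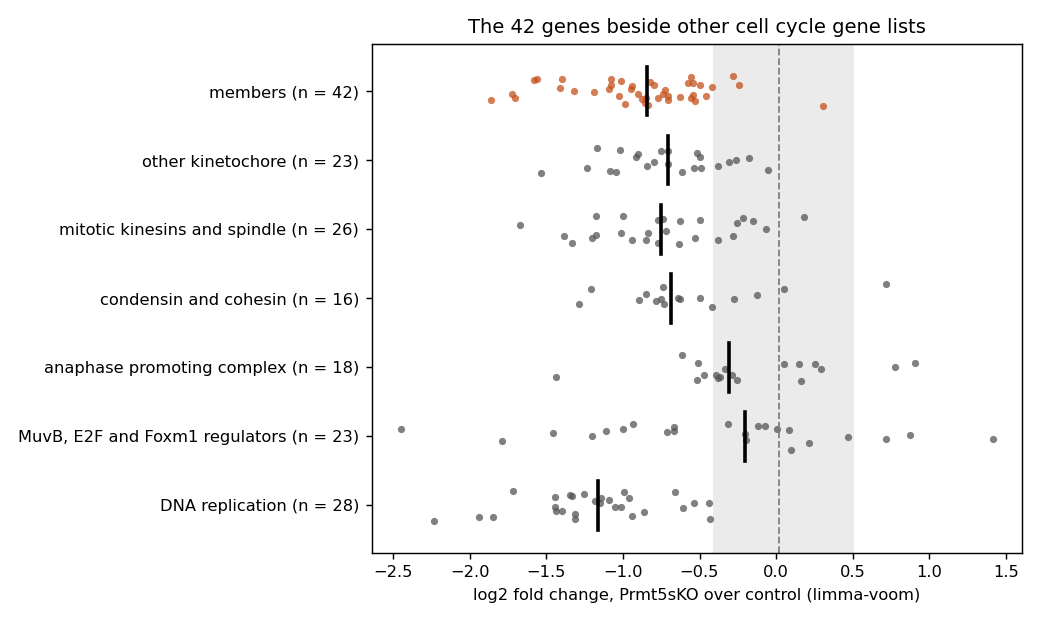
Log2 fold change (Prmt5sKO over control, limma-voom) of each gene tested in 7 lists, with the number of genes beside each name and a black bar at the median; the vertical scatter within a list carries no value, and the grey band and dashed line are the quartiles and median of all genes tested. The members (top, median −0.84) lie between the APC/C list (−0.31) and DNA replication (−1.17), and the regulators spread widest.

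Transcription factors and cofactors that act on such promoters were spread in both directions, with −0.20 as the median log2 value over 23 genes. Of these, 11 lay below both controls in each Prmt5sKO library (47.8%, against 23.6% of all genes) and 3 above, where all genes gave 25.2%. Mybl2 (B-Myb), which joins the MuvB core in S phase, had 1503 and 1637 normalized counts in control versus 265 and 318 in Prmt5sKO (log2 fold change −2.45 ± 0.24 SE, adjusted p = 0.198). Foxm1, which joins it in G2, had 1903 and 2318 against 848 and 989 (−1.20 ± 0.22 SE, adjusted p = 0.218). Both were lower in each Prmt5sKO library than in any control library. Rb1, the retinoblastoma protein, which holds back E2F, had 446 and 502 in control versus 1118 and 1423 in Prmt5sKO (1.41 ± 0.25 SE, adjusted p = 0.208).

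Another list held 11 genes linked to cell cycle arrest or to inhibition of cyclin-dependent kinases (Cdkn1a, Cdkn1b, Cdkn1c, Gadd45a, Gadd45b, Gadd45g, Wee1, Pkmyt1, Sfn, Btg2 and Rprm). Of these, 2 lay below both controls in each Prmt5sKO library (18.2%, against 23.6% of all genes) and 4 above, where all genes gave 25.2%. Their median was 0.25 on the log2 scale. Pkmyt1, which phosphorylates and inhibits Cdk1, was the lowest (−1.32 ± 0.35 SE, adjusted p = 0.276). The list's highest fitted value belonged to Rprm, a G2 arrest gene with 0 to 15.1 normalized counts per library, too few for a fold change to be read. Cdkn1a (p21), an inhibitor of cyclin-dependent kinases, had 3379 and 2057 normalized counts in control versus 8358 and 15703 in Prmt5sKO (2.13 ± 0.38 SE, adjusted p = 0.214).

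The 2 libraries of a genotype were not alike in the 42 genes. Relative to the control mean the deeper Prmt5sKO library had a median log2 difference of −0.74 and the shallower one of −0.91. In the shallower one 32 of the 42 genes were lower than in the deeper one, against 8261 of all 16212 genes tested. In the controls 30 of the 42 were higher in the shallower library (7855 of all genes tested), with a median difference of 0.19. Markers of muscle differentiation, as a sum, went the opposite way, lower in the shallower control and higher in the shallower Prmt5sKO library. Summed over 13 markers, they came to 12247 and 6700 normalized counts in control versus 18770 and 261012 in Prmt5sKO, and Myog, which starts differentiation, had 1436 and 1189 against 3707 and 19508. The sum in the deeper Prmt5sKO library was 1.53 times that of the deeper and 2.80 times that of the shallower control. Relative to the control mean, 40 of the 42 genes were lower in the deeper Prmt5sKO library, the others being Cenpt and Ttk, and 41 in the shallower one. The part of differentiating cells in the lower mitotic mRNA levels was not tested.

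Xist, the RNA of the inactive X chromosome, split the libraries in another way, with 8668 and 23.3 normalized counts in control versus 8.15 and 5655 in Prmt5sKO. Compared within libraries of like Xist level, the members' median log2 ratio of Prmt5sKO to control was −0.82 where Xist was high (deeper control, shallower Prmt5sKO) and −0.81 where it was low, with 41 of 42 lower in each pair, against all-gene medians of 0.00 and 0.04. With these pairs as a block, 7 of the 42 passed the adjusted threshold as lower, against 0.968% of all genes. They were Cdca8, Espl1 and Incenp (adjusted p = 0.019 each, limma-voom), Aurkb and Mki67 (both 0.031), Cenpf (0.046) and Ccna2 (0.047). The columns carry no replicate numbers, and this pairing was read from the data. With the deeper libraries paired instead, 0 of all genes were called, members included.

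**Figure D5:**
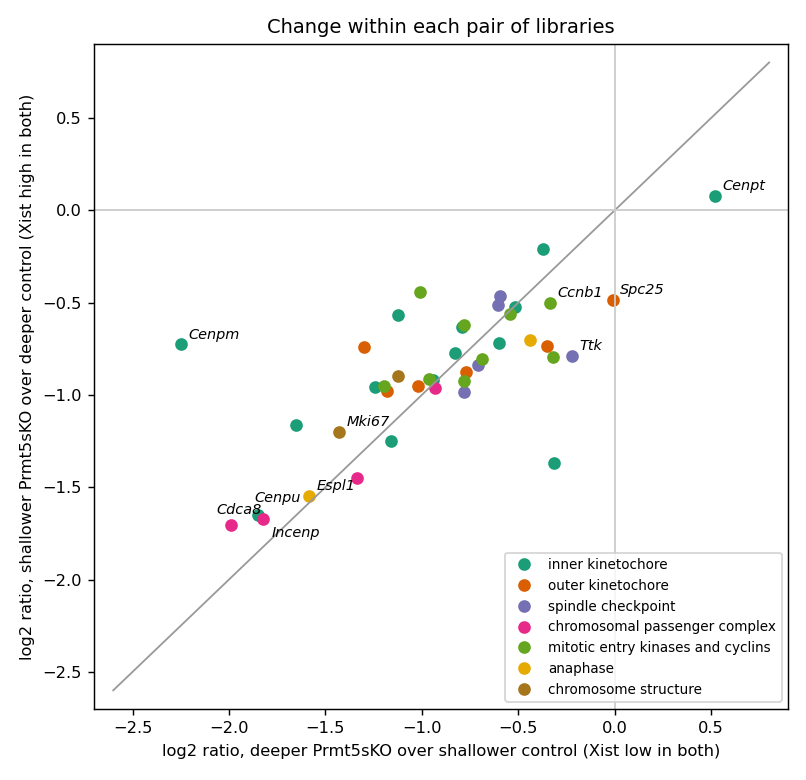
Log2 ratio of Prmt5sKO to control normalized counts for each of the 42 genes within the pair of libraries with low Xist (x axis) and the pair with high Xist (y axis), coloured by role, with the line of equal ratios. Most genes lie near the line and below 0 on both axes, while Cenpm (−2.25 and −0.73) and the unlabelled inner kinetochore gene Cenpw (−0.32 and −1.37) lie far from it and Cenpt lies above 0 on both.

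The targeted gene matched the labels, with 2273 and 2906 normalized counts of Prmt5 in control versus 244 and 202 in Prmt5sKO. Of 8 muscle stem cell markers, Pax7 (2570 to 3664 normalized counts) and Myod1 (12153 to 15548) were high in all 4 libraries. The 8 summed to 52982 and 45022 in control versus 46250 and 76597 in Prmt5sKO. Des, Cdh15 and Itga7 were highest in the shallower Prmt5sKO library (Des at 32171, against 12514 to 14906 elsewhere). In both Prmt5sKO libraries Myf5 was lower (1305 and 1252 against 1630 and 1772) and Vcam1 higher (1737 and 1883 against 1605 and 1405). Markers of other cells summed to 248 to 283 in control and 335 to 602 in Prmt5sKO for 6 fibro-adipogenic genes (Lum at 0 in 3 libraries, Dpt in 1). Cd34, a marker used in the sort, made up most of the sum in 3 libraries but not in the shallower control, and the other 5 genes summed to 62.2 and 223 in control versus 62.2 and 64.4 in Prmt5sKO. The sums were 124 to 163 in control and 56.3 to 90.4 in Prmt5sKO for 4 endothelial genes (Cdh5 at 0 in 1 library). They summed to 129.96 to 134 and 78.5 to 104 for 4 immune genes (Itgam at 0 in 1 library), and to 42.8 to 52.0 and 28.2 to 38.2 for 4 Schwann cell genes (Sox10 and S100b at 0 in some libraries). Emcn, Ptprc, Cd3e and Kcnj8 were also on these lists, but no gene with values was matched to these names. For 4 smooth muscle and pericyte genes the sums were higher in both Prmt5sKO libraries, at 4057 and 9360 against 2739 and 741, carried by Rgs5 and Notch3, while Myh11 had 6.67 to 10.2 normalized counts. Their part in the changes of the 42 genes was not tested. Exons of 13 of the 42 overlap another annotated gene, by up to 26.7% of their length, and the strand setting of the counting is not given in the sources used here.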

How the data were processed

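RNA-seq was done on cultured satellite cells with 2 control and 2 Prmt5sKO libraries (ribosomal depletion, Ion Torrent Proton). Per the labels, reads were aligned to mm10 (GRCm38) with STAR 2.4.0a and compared with DESeq2 1.62; the counting tool is not given in the sources used here. The authors deposited group means of size-factor-normalized counts (a signal, not raw reads) beside their own fold changes and p-values, which were not used. Each group mean is a sum of whole reads of 2 libraries, each divided by its size factor, so whole reads per library were solved from the steps between values. A single solution was found for 100% of 20065 genes in both genotypes, with a relative residual of at most 5.1e-15, which gave 13240754 to 20047430 reads per library.

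Reads were scaled by TMM (own code, trimming 30% of M-values and 5% of A-values) and tested with limma-voom (limma 3.58.1 in R 4.3.3) over the 16212 genes whose mean over libraries reached 5 normalized counts. A call needed an adjusted p (Benjamini-Hochberg) of at most 0.05 and a change of at least 2-fold. Tests are two-sided. Recovery and fit were tested on simulated data. Other settings tried were 3 scalings, 2 filters, limma-trend, each library left out and 2 pairings of libraries as a block. GENCODE M21 gave symbols, coordinates and exon lengths for 19782 of 20065 identifiers. Members, roles and lists were chosen with earlier results of these data known. Named with values in every library were, per role, the member highest per kilobase and those with the lowest and highest fold change, and 9 well-known members, with further members summarised. From each pathway list the lowest and highest gene were named.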

Additional observations from a re-analysis of the deposited data

How the results depend on the processing

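Under 12 other settings, 503 of 504 member fold changes kept their direction. The exception was Ttk, which came to 0.021 without the shallower Prmt5sKO library (range −1.01 to 0.021 with 1 library left out). The members' median log2 fold change less that of all genes stayed between −0.94 and −0.73. Scaling by library size alone moved the median of all genes from 0.02 to 0.13 and that of the members to −0.73. Under this scaling 38 members lay lower in both Prmt5sKO libraries, and the matching share of all genes was not computed. Pairing libraries of like Xist as a replicate block called 346 genes, 7 of them members, while pairing the deeper libraries called 0 of either. The deeper pairing left 23 members at an unadjusted p under 0.05 (limma-voom), and the matching share of all genes was not computed. Within-group differences correlated at 0.30 in the first pairing over 11487 genes. In the second pairing the same value takes the opposite sign (−0.30) by arithmetic, so it is not a separate result.

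With 1 library left out, which leaves a lone sample assumed to vary like the other genotype, 0 to 489 genes and 0 to 5 members were called. Without the deeper Prmt5sKO library the 489 of 15927 included Aurkb, Cdca8, Espl1, Incenp and Mki67, and without the shallower one the 55 of 16070 included Cdca8. Members at an unadjusted p under 0.05 ranged from 11 (without the shallower control) to 31. The other settings called 0 genes and 0 members. With 2 libraries a genotype, the widest standard errors belong to members with few reads, such as Cenpm and Cenpu.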
